A study of Mus musculus with 2 samples.

Results

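The chloride, bicarbonate and proton exchangers of the colon were described here through 9 genes: Slc26a3, Slc26a6 and Slc26a2, which swap anions, Slc9a2 and Slc9a3, which swap sodium for protons, Slc12a2 and Slc4a4, which load the cell with chloride or bicarbonate, and the anion channels Best2 and Clcn2. They were taken from the gene and transcript quantification tables by gene symbol, and all 9 were found, among 43346 Ensembl genes in the tables. Each of the 9 reached 1 TPM (a share of all transcripts in a library, scaled for transcript length) in both libraries. The study sequenced polyadenylated RNA longer than 200 nucleotides from mouse colon, of the strain C57BL/6J and the adult age of 8 weeks. It has a single group of 2 libraries, replicate 1 and replicate 2, made as stranded paired reads of 76 nucleotides. The tissue was pooled from male and female littermates. The labels name no mutation or treatment, and they give the replicates separate tissue samples but the same donor record. With no second tissue, genotype or treatment, the comparisons possible are between genes, between transcripts of a gene and between the libraries.

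In the colon, salt is absorbed at the luminal face when a sodium-proton exchanger and a chloride-bicarbonate exchanger work side by side: sodium and chloride enter the cell while protons and bicarbonate leave it, and carbonic anhydrase inside the cell supplies both. Secretion runs the other way. Chloride or bicarbonate is loaded across the face towards the blood, by a sodium, potassium and chloride cotransporter or a sodium bicarbonate cotransporter, and leaves through anion channels.

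Replicate 1 held 46271167 expected counts over Ensembl genes and replicate 2 held 45499561. Absorptive colonocyte markers summed to 22733 TPM in replicate 1 and 24641 TPM in replicate 2, with all 8 genes of the list above 1 TPM in mean. Goblet cell markers summed to 29467 and 33503 TPM, and a list of 6 small intestinal genes to 48.7 and 47.3 TPM. The libraries stood apart in pancreatic acinar markers, at 30.3 TPM in replicate 1 and 33117 TPM in replicate 2, where 11 of 11 were higher and Ptf1a was at 0 in replicate 1. Red blood cell markers summed to 525 and 2998 TPM, with 5 of 5 higher in replicate 2. The part of these tissues in any difference between the libraries below was not tested. In RNA from whole tissue, fewer cells of a type and less RNA per cell cannot be told apart.

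The 9 genes together held 995 TPM in replicate 1 and 895 TPM in replicate 2, a mean of 945 ± 70.5 (SD, n = 2). Clcn2 supplied 30.3% of the mean sum, Slc9a2 24.6%, Slc26a3 16.4%, Slc9a3 10.05% and Best2 8.47%, and the other 4 genes supplied the rest. Levels spanned 32.9-fold from Clcn2 to Slc26a6 in the means. In rank among 21474 protein-coding genes, Clcn2 stood at 455, Slc9a2 at 572, Slc26a3 at 920, Slc9a3 at 1534 and Best2 at 1859, while Slc26a2 stood at 2906, Slc12a2 at 4065, Slc4a4 at 7494 and Slc26a6 at 7802. Of the 8 pairs of neighbours in this order, 6 did not overlap between their library values. Slc9a3 and Best2 overlapped, as did Slc4a4 and Slc26a6, so the order within each of those pairs was not resolved by the 2 libraries.

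**Figure D1:**
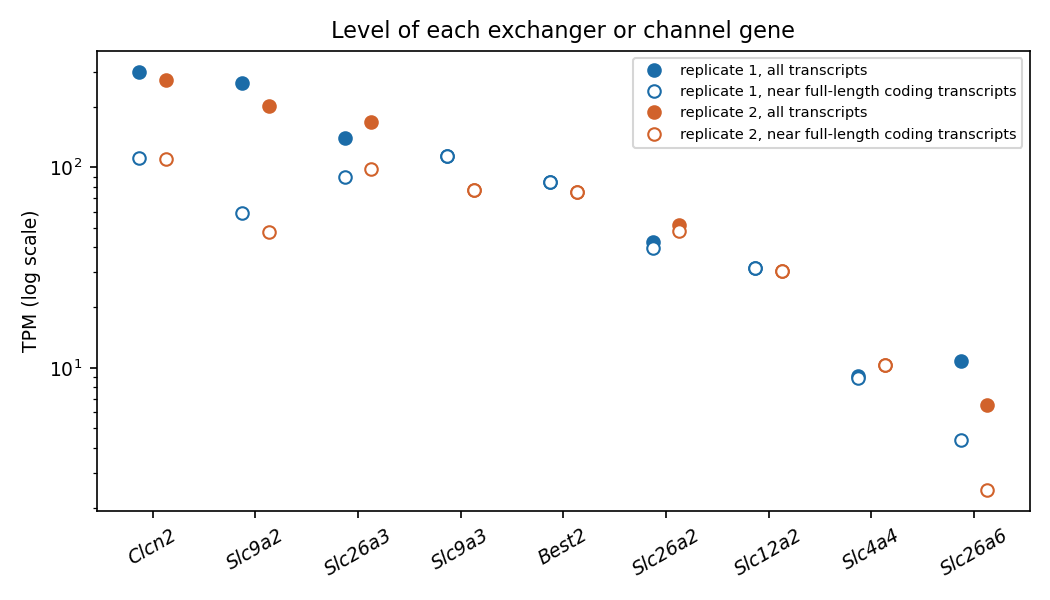
Level of each gene in TPM on a log axis, with blue for replicate 1 and orange for replicate 2; filled points count all transcripts of the gene, and open points count near full-length coding transcripts. Filled and open points lie far apart for Clcn2, Slc9a2, Slc26a3 and Slc26a6, and coincide for Slc9a3, Best2 and Slc12a2.

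These gene totals add every annotated transcript, and for several members much of the total was assigned to transcripts that do not carry the whole reading frame. The totals were therefore also given for near full-length coding transcripts alone, meaning protein-coding transcripts whose coding sequence is at least 80% of the longest of the gene, a view chosen after the transcript values were seen. On it the sum of the 9 genes was 522 TPM in mean, and the order became Clcn2 at 111 ± 1.19 TPM, Slc9a3 at 95.7 ± 26.4, Slc26a3 at 93.8 ± 5.49, Best2 at 80.04 ± 6.16, Slc9a2 at 53.4 ± 8.24, Slc26a2 at 43.7 ± 6.09, Slc12a2 at 30.9 ± 0.863, Slc4a4 at 9.64 ± 0.969 and Slc26a6 at 3.41 ± 1.34 (SD, n = 2 each). Slc9a2 thus moved from the second place to the fifth. Slc9a3, Best2 and Slc12a2 each have 1 quantified transcript, so they could not lose TPM on this view. For Slc26a6 the view keeps Slc26a6-202, annotated without a stop, and leaves out Slc26a6-203, a fragment at the far end of the gene. The neighbours Clcn2 and Slc9a3, Slc9a3 and Slc26a3, and Slc9a2 and Slc26a2 overlapped between their library values.

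**Figure D2:**
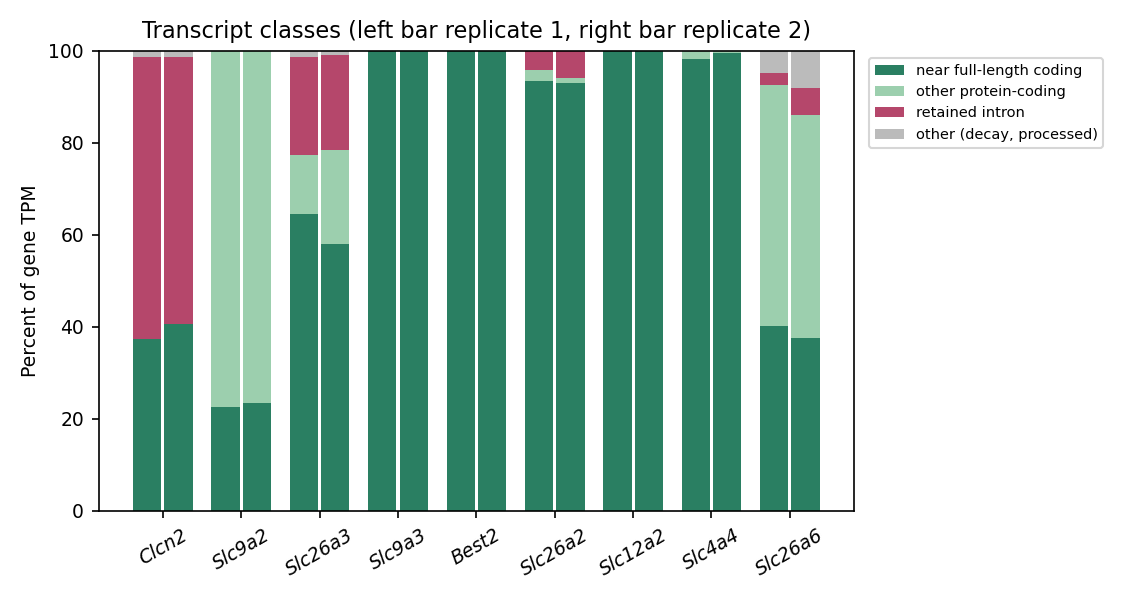
Share of each gene's TPM in percent held by 4 classes of annotated transcript, with the left bar for replicate 1 and the right bar for replicate 2. Clcn2 had 61.3% and 58.0% in retained intron transcripts, and Slc9a2 had 77.5% and 76.5% in a protein-coding transcript with a shorter reading frame.

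Slc26a3, also known as DRA, is the luminal chloride-bicarbonate exchanger whose loss in people causes a chloride-losing diarrhoea. It lies on chromosome 12, from 31390871 to 31473917 on the plus strand of mm10. Its level was 139 TPM in replicate 1 and 168 TPM in replicate 2, a mean of 154 ± 20.3 (SD, n = 2), from 12848 and 14026 expected counts. Replicate 2 was the higher, and the deposited intervals, 132.6 to 143.2 and 161.3 to 171.6 TPM, did not overlap. Among the 11 genes of its family in the tables it ranked first, with 67.3% of the family's TPM in replicate 1 and 67.4% in replicate 2.

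Most of Slc26a3 was assigned to Slc26a3-201, the transcript of 21 exons and 757 codons, at 89.9 and 97.7 TPM, or 64.5% and 58.1% of the gene. Slc26a3-204, annotated as a retained intron transcript that takes in the whole of intron 7 of Slc26a3-201, held 27.95 and 27.4 TPM. Retained intron transcripts together made up 21.4% and 20.6% of the gene. Over 5577 protein-coding genes with at least 2 transcripts and a mean of at least 10 TPM, the median retained intron share was 0.647% and the upper quartile 11.2%, and 18.1% of those genes had a higher share than Slc26a3. Slc26a3-205, a coding fragment of 942 nucleotides, held 17.9 TPM in replicate 1 and 34.2 TPM in replicate 2. The deposited intervals of these values, 10.2 to 23.7 and 24.7 to 40.4 TPM, did not overlap, although their bounds came close. This fragment begins 47348 bases upstream of Slc26a3-201 and has 146 bases of its own, so its level rests on few positions that the main transcript lacks. The log2 ratio of replicate 1 to replicate 2 was -0.27 for the TPM of the gene and -0.16 for its scaled counts, and the gene length in the deposited tables, weighted over transcripts, was 2729 nucleotides in replicate 1 and 2514 in replicate 2.

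The 250 bases before the start of Slc26a3-201 are shown because this start led the most abundant luminal anion exchanger. The window is chr12:31437969-31438218 on the plus strand, from RefSeq on GRCm38.p6, the assembly that mm10 also names, and capitals mark TATAAA (or its reverse, TTTATA) and CCAAT (or ATTGG).
Slc26a3 upstream: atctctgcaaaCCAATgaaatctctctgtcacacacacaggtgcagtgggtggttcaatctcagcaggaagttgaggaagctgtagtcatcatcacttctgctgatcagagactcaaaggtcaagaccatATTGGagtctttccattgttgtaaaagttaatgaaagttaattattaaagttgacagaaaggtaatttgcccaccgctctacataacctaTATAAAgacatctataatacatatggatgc
The window held 1 match to TATAAA and 2 to CCAAT on either strand, and none to GGGCGG (or CCGCCC). Of 32851 RefSeq promoter windows of the same length, 12.4% held TATAAA, 33.8% held CCAAT and 32.7% held GGGCGG. These matches describe the letters of the window only.

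Slc26a6, or PAT1, is a luminal exchanger of chloride for bicarbonate and oxalate, known in the mouse mainly from the small intestine. The gene spans 108853283 to 108913049 on the plus strand of chromosome 9. It was the lowest of the 9 genes in mean and in replicate 2, though above Slc4a4 in replicate 1, at 10.8 TPM in replicate 1 and 6.56 TPM in replicate 2, a mean of 8.69 ± 3.01 (SD, n = 2), from only 424 and 267 expected counts. Replicate 1 was the higher and the relative spread was the widest among the 9. Slc26a3 exceeded it 12.9-fold in replicate 1 and 25.6-fold in replicate 2, and 20.7-fold and 39.7-fold in near full-length coding transcripts. For Slc26a6 that view keeps Slc26a6-202, annotated without a stop. It leaves out Slc26a6-203, a fragment annotated with a stop, at 5.66 TPM in replicate 1 and 3.18 TPM in replicate 2. Whether they are parts of the same RNA was not tested, so the near full-length ratios depend on this annotation.

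About as much of the Slc26a6 TPM fell on a fragment at the far end of the gene as on the rest of it. Slc26a6-203 is a 2-exon transcript of 418 nucleotides that begins 50266 bases beyond the end of Slc26a6-202 and shares no base with it. It drew only 43 and 25 expected counts, which its short length turned into 5.66 and 3.18 TPM, or 52.3% and 48.4% of the gene. Slc26a6-202, with 18 exons, held 3.67 TPM in replicate 1 and 2.07 TPM in replicate 2. The deposited intervals of that transcript did not overlap, at 2.83 to 4.18 and 1.15 to 2.36 TPM. Both transcripts are incomplete as annotated. The coding sequence of Slc26a6-202 runs to its last base, 108862143, without a stop. That of Slc26a6-203 starts at its first base, 108912410, and is followed by the stop TGA. Slc26a6-201, which spans 108854037 to 108912558 and has the longest coding sequence, was at 0 TPM in both libraries. Whether Slc26a6-202 and Slc26a6-203 are parts of the same RNA was not tested.

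Slc26a2 is a sulphate transporter that exchanges sulphate for chloride and is best known for its part in cartilage. Its locus is on the minus strand of chromosome 18, 61192919 to 61211612. It was measured at 42.2 TPM in replicate 1 and 51.6 TPM in replicate 2, a mean of 46.9 ± 6.67 (SD, n = 2), and replicate 2 was the higher. It was second in its family, with 20.4% and 20.7% of the TPM. Its transcript Slc26a2-202, of 4 exons, carried 93.5% and 93.1% of the gene, so that near full-length levels stayed close to the total. Apart from the 3 members, only Slc26a11 (16.2 TPM in mean) and Slc26a10 (2.18 TPM) reached 1 TPM among 8 other family genes, and Slc26a11 lay above Slc26a6.

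**Figure D3:**
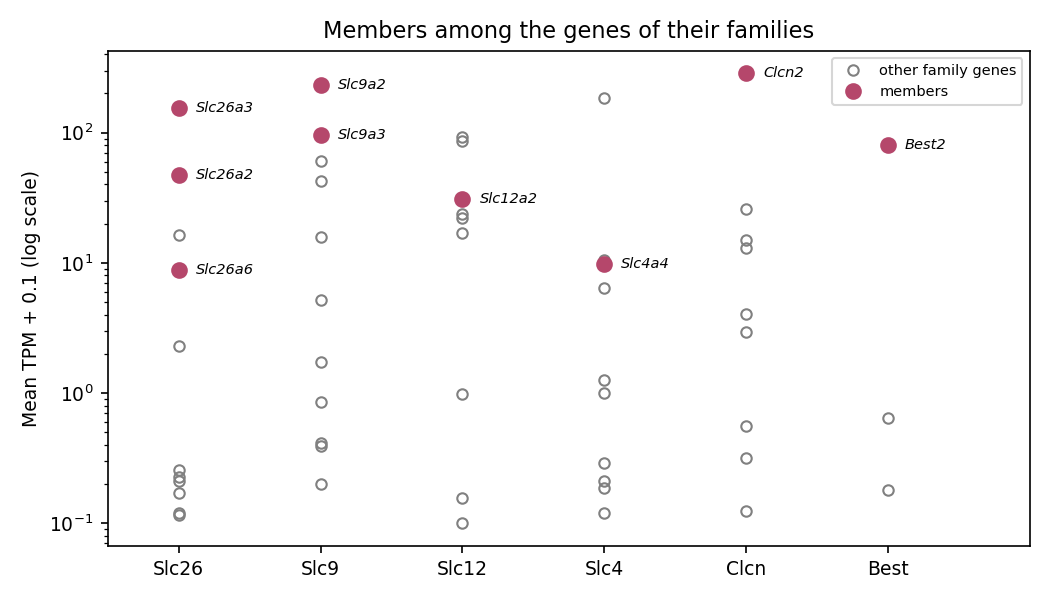
Mean TPM of the 2 libraries plus 0.1, on a log axis, for the genes of 6 families; filled points are the 9 described genes and open points the other genes of each family. Members led the Slc26, Slc9, Clcn and Best families, while Slc12a2 and Slc4a4 each ranked in mean behind 2 others in theirs.

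Slc9a2, or NHE2, is a sodium-proton exchanger of the luminal membrane. It lies on chromosome 1, from 40680574 to 40769273 on the plus strand. Its level was 263 TPM in replicate 1 and 203 TPM in replicate 2, a mean of 233 ± 42.0 (SD, n = 2), and replicate 1 was the higher. It made up 51.2% of the TPM of the 11 Slc9 genes in both libraries. In gene totals it exceeded Slc9a3 by 2.30-fold in replicate 1 and 2.64-fold in replicate 2.

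Most of that total, however, was assigned to Slc9a2-203, a transcript of 3 exons and 2507 nucleotides, at 204 and 156 TPM, or 77.5% and 76.5% of the gene. The full transcript Slc9a2-201, with 12 exons and 5019 nucleotides, was at 59.2 and 47.6 TPM. Slc9a2-203 does not splice at the end of exon 3 but reads on for 1223 bases into intron 3, which is 16161 bases long. Its annotated reading frame has 336 codons against 814 in Slc9a2-201. The place where the transcripts part is shown because it separates these levels. Both sequences are on the plus strand of chromosome 1, from the GENCODE M21 transcripts, with the last 30 bases of exon 3 in lower case and the 12 bases that follow in capitals.
Slc9a2-201, exon 3 to exon 4: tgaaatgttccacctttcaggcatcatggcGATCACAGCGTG
Slc9a2-203, exon 3 read on into intron 3: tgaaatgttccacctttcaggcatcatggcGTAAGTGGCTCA
The first capital of the lower sequence ends its last codon, and the next 3 letters are TAA, the annotated stop. In near full-length transcripts the order of the sodium-proton exchangers was turned, since Slc9a2 stood at 0.518 of the Slc9a3 level in replicate 1 and 0.617 in replicate 2. Slc9a3 has 1 quantified transcript, so only Slc9a2 could lose TPM on this view. Of the 5577 genes with several transcripts, 14.2% had a lower near full-length share than Slc9a2, and their median share was 77.1%. Both transcripts were lower in replicate 2 and their shares moved by about 1 percentage point, against a median move of the leading transcript of 4.15 points over the 5577 genes.

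Slc9a3, or NHE3, is the other luminal sodium-proton exchanger of absorptive cells. The gene spans 74121457 to 74169442 on the plus strand of chromosome 13. It was at 114 TPM in replicate 1 and 77.0 TPM in replicate 2, a mean of 95.7 ± 26.4 (SD, n = 2). Replicate 1 was the higher, by 1.48-fold, the second widest gap among the 9 genes. The tables give it 1 transcript, of 2490 nucleotides with 2487 coding bases, so that its TPM rests on the coding length and its transcript choice could not vary. Slc26a3 exceeded it 1.22-fold in replicate 1 and 2.18-fold in replicate 2. In near full-length transcripts the ratio was 0.786 in replicate 1 and 1.27 in replicate 2, so the order of the luminal chloride and proton exchangers differed between the libraries on that view.

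Among 9 other Slc9 genes, 5 reached 1 TPM, among them Slc9a8 at 42.4 ± 0.509 TPM (SD, n = 2). Of 13 scaffold and regulator genes of these transporters, 12 reached 1 TPM. Slc9a3r1, also called NHERF1, which ties the exchangers to the cytoskeleton, was at 184 ± 5.60 TPM, and Ezr, the linker ezrin, at 175 ± 35.6 TPM. The scaffold Pdzk1 was at 0 TPM in replicate 1 and 0.06 TPM in replicate 2. Of the carbonic anhydrases, which make the bicarbonate and protons that are exchanged, Car1 was at 2447 ± 259 TPM and Car2 at 1412 ± 220.5 TPM, above all 9 members, while Car12 was at 31.9 ± 18.7 TPM.

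Slc12a2, or NKCC1, brings sodium, potassium and chloride into the cell across the face towards the blood. It lies on chromosome 18, from 57878678 to 57946821 on the plus strand. Its level was 31.5 TPM in replicate 1 and 30.3 TPM in replicate 2, a mean of 30.9 ± 0.863 (SD, n = 2), all on 1 transcript of 27 exons. The library values nearly coincided, and their deposited intervals overlapped. Slc26a3 exceeded Slc12a2 4.43-fold in replicate 1 and 5.55-fold in replicate 2, or 2.85-fold and 3.23-fold in near full-length transcripts. Slc12a2 was the third of its family, with 10.5% and 12.3% of the TPM, behind Slc12a8 at 92.0 ± 11.7 TPM and the potassium-chloride cotransporter Slc12a7 at 86.4 ± 13.8 TPM.

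Slc4a4, or NBCe1, is a sodium bicarbonate cotransporter of the same face. Its locus is on the plus strand of chromosome 5, 88886818 to 89239653. It was at 9.10 TPM in replicate 1 and 10.4 TPM in replicate 2, a mean of 9.74 ± 0.905 (SD, n = 2), and replicate 2 was the higher. Slc12a2 exceeded it 3.46-fold in replicate 1 and 2.92-fold in replicate 2. It held 4.14% and 4.99% of the TPM of its family of 10 and ranked the third in mean, although the second in replicate 2, while the anion exchanger Slc4a2 led with 185 ± 9.54 TPM and Slc4a3 followed at 10.4 ± 0.134 TPM. The values of Slc4a3 and Slc4a4 lay within 2 TPM of each other in both libraries.

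Slc4a4 is known to be read from an upstream start, in many epithelia and the pancreas, and from an internal start, in the kidney, and the resulting proteins differ in their first part. The transcript from the upstream start, Slc4a4-207, held 8.95 and 10.3 TPM, or 98.3% and 99.4% of the gene. Slc4a4-203, from the internal start 141148 bases downstream, was at 0 in both libraries, and the short internal-start Slc4a4-204 was at 0.16 and 0.06 TPM. In all, 6 of 8 Slc4a4 transcripts were at 0 in both libraries. Pancreatic acinar markers summed to 30.3 TPM in replicate 1 and 33117 TPM in replicate 2, and their part in the Slc4a4 level was not tested. Before the first shared coding exon, Slc4a4-207 has 253 coding bases of its own and Slc4a4-203 has 121. The joins are shown because the forms part there. They run along the plus strand of chromosome 5, from the GENCODE M21 transcripts, with the last 30 bases before the shared exon in capitals and the first 30 shared bases in lower case.
Slc4a4-207, upstream form: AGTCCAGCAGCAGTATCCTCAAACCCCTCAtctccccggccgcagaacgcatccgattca
Slc4a4-203, internal form: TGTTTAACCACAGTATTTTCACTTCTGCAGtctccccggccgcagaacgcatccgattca
The window before the internal start, chr5:89027716-89027965 on the plus strand (RefSeq, GRCm38.p6), is shown for the start whose transcript was at 0, with capitals at a CCAAT match read as ATTGG.
Slc4a4 internal upstream: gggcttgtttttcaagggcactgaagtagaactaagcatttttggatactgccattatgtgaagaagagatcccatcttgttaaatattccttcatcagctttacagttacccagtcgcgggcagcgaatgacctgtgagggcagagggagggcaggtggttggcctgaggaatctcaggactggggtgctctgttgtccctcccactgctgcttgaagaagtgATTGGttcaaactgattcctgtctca
It held no match to TATAAA or GGGCGG, which says only that those letters are not in the window.

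Best2 encodes bestrophin 2, an anion channel opened by calcium that in the mouse colon has been placed in goblet cells and linked to bicarbonate release. The gene spans 85007202 to 85014531 on the minus strand of chromosome 8. It was at 84.4 TPM in replicate 1 and 75.7 TPM in replicate 2, a mean of 80.04 ± 6.16 (SD, n = 2), on the only transcript quantified, of 10 exons. That transcript was quantified at 2089 nucleotides, against 1971 in GENCODE M21, from which the exons were counted. Replicate 1 was slightly the higher. The other genes of the family in the tables, Best1 and Best3, stayed below 1 TPM, and Best2 held 99.2% of the family's TPM in both libraries. Of the 7 goblet cell markers, 4 were higher in replicate 2 and 3 were higher in replicate 1 in TPM. In scaled counts the median log2 ratio of that list, replicate 1 over replicate 2, was -0.239, while Best2 was at 0.137.

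Clcn2 encodes ClC-2, a voltage-gated chloride channel that in rodent colon has been placed on the face of surface cells towards the blood. It lies on chromosome 16, from 20702964 to 20717746 on the minus strand. Its gene total was the highest of the 9, at 300.1 TPM in replicate 1 and 272 TPM in replicate 2, a mean of 286 ± 19.9 (SD, n = 2). Replicate 1 was the higher. It made up 82.3% and 82.4% of the TPM of the 9 Clcn genes. The ratio of Clcn2 to Best2 was the steadiest of the 6 ratios examined, at 3.56 and 3.59, and it was 1.33 and 1.46 in near full-length transcripts. Its gene overlaps Fam131a and Polr2h on the opposite strand, at its ends only. Fam131a ends at 20703048 and was at 3.19 TPM in replicate 1 and 6.39 TPM in replicate 2. Polr2h starts at 20717665 and was at 9.80 and 11.3 TPM. Whether strand was used in counting is not given in the sources used here, so reads from those overlaps cannot be told apart.

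Clcn2-201, the transcript of 24 exons and 908 codons, was at 112 TPM in replicate 1 and 110.3 TPM in replicate 2, and its deposited intervals overlapped. It made up only 37.3% and 40.6% of the gene. Retained intron transcripts held 61.3% and 58.0%, and 5.02% of the 5577 genes had a higher share. Clcn2-209, which keeps introns 18 (160 bases) and 19 (210 bases) of Clcn2-201, was at 76.5 TPM in replicate 1 and 48.9 TPM in replicate 2. Clcn2-207, which keeps intron 15 (334 bases), was at 62.9 and 48.9 TPM, again lower in replicate 2. Clcn2-203, a fragment of 600 nucleotides that takes in 137 bases of intron 19, ran the other way, at 25.1 and 43.5 TPM. The deposited intervals of each of these 3 transcripts were apart. In estimated TPM the main coding transcript differed less between the libraries than these 3 retained intron transcripts did, and Clcn2-203 and Clcn2-209 moved in opposite directions. The 137 intron bases of Clcn2-203 all lie in intron 19, which Clcn2-209 keeps whole. The levels of Clcn2-203 and Clcn2-209 therefore depend on how the quantifier divided shared reads.

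The end of exon 18 is shown because the spliced and unspliced forms part there. Both sequences are on the minus strand of chromosome 16, from the GENCODE M21 transcripts, with the last 30 bases of exon 18 in lower case and the next 30 in capitals.
Clcn2-201, exon 18 to exon 19: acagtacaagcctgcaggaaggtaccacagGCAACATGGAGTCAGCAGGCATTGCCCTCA
Clcn2-209, exon 18 read on into intron 18: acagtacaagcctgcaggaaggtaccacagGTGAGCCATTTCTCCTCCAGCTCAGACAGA
The retained sequence opens with GT, the usual first letters of an intron. Among 12 other chloride channel genes, 7 reached 1 TPM, led by Ano1, a calcium-activated channel, at 157 ± 17.4 TPM and Clcn7, a lysosomal exchanger, at 26.0 ± 1.09 TPM. Cftr, the channel opened by cyclic AMP, was at 3.65 TPM in replicate 1 and 5.29 TPM in replicate 2.

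**Figure D4:**
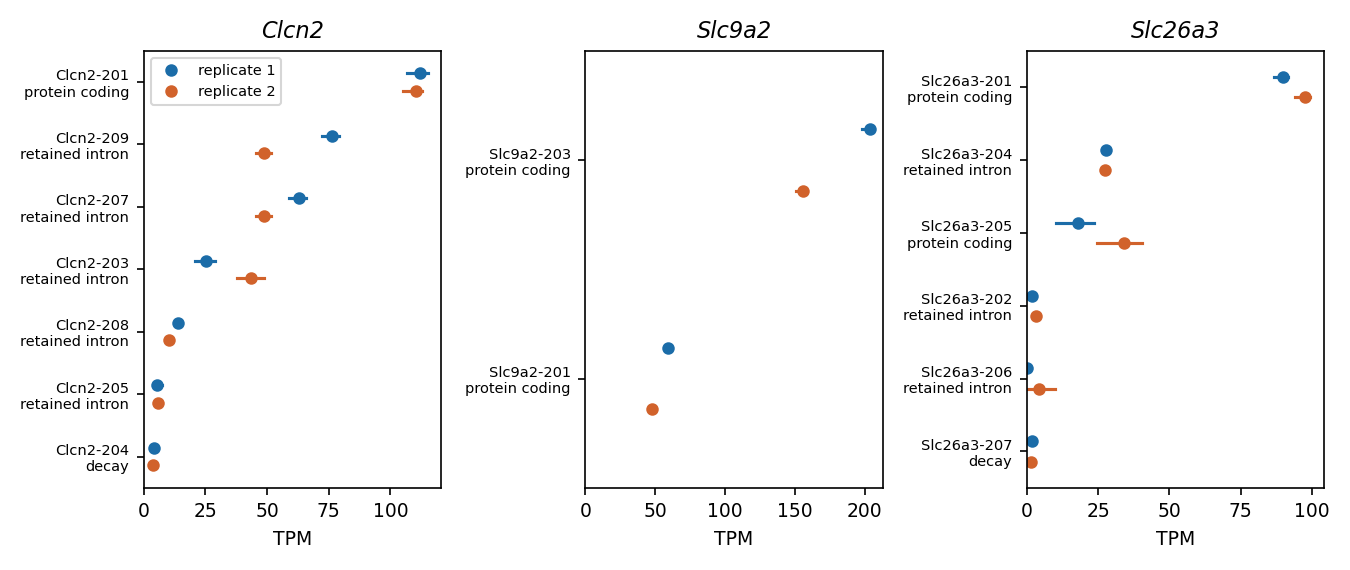
TPM of each transcript with a mean of at least 1 TPM for Clcn2, Slc9a2 and Slc26a3, with blue for replicate 1 and orange for replicate 2; bars are the interval bounds deposited by the authors, whose level is not given in the sources used here. Clcn2-201 overlapped between the libraries, while Clcn2-209, Clcn2-207 and Clcn2-203 did not.

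The libraries were then set against each other for all 9 genes. A gene was called different when an exact two-sided binomial test on scaled expected counts passed an adjusted p of 0.05 (Benjamini-Hochberg) and the log2 ratio reached 1 in either direction. The call was met by 0 of the 9 genes, against 6.35% of 17713 genes tested. By the test alone, without the fold, 5 members were higher in replicate 1, against 25.5% of genes tested, and 3 were higher in replicate 2, against 24.0%. The same 8 members had an unadjusted p of at most 0.05. The test passes smaller differences where counts are higher, and the genes tested were not matched to the members for depth. With edgeR's exact test at the dispersion common to these libraries, which allows for spread beyond counting error (a coefficient of variation of 0.271), 0 of the 9 passed, 0 had an unadjusted p of at most 0.05, and 1.35% of all genes passed test and fold. The dispersion was estimated from these same libraries taken as a single group, so it includes the differences under test. This result therefore does not show that the members were alike in the libraries.

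The members higher in replicate 1 were Slc26a6 at a log2 ratio of 0.63 (95% counting interval 0.41 to 0.86), Slc9a3 at 0.55 (0.51 to 0.60), Slc9a2 at 0.34 (0.32 to 0.37), Clcn2 at 0.23 (0.21 to 0.26) and Best2 at 0.14 (0.08 to 0.19). Those higher in replicate 2 were Slc26a2 at -0.31 (-0.35 to -0.27), Slc4a4 at -0.22 (-0.30 to -0.14) and Slc26a3 at -0.16 (-0.19 to -0.12). Slc12a2, at 0.04, did not pass the exact binomial test (adjusted p = 0.131). Both sodium-proton exchangers were thus higher in replicate 1, while Slc26a3 was higher in replicate 2, the library with the acinar and red blood cell markers. The median size of the log2 ratio was 0.23 for the members and 0.23 for all genes tested, and 0.17 for the 9792 genes with a mean of at least 5 TPM.

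**Figure D5:**
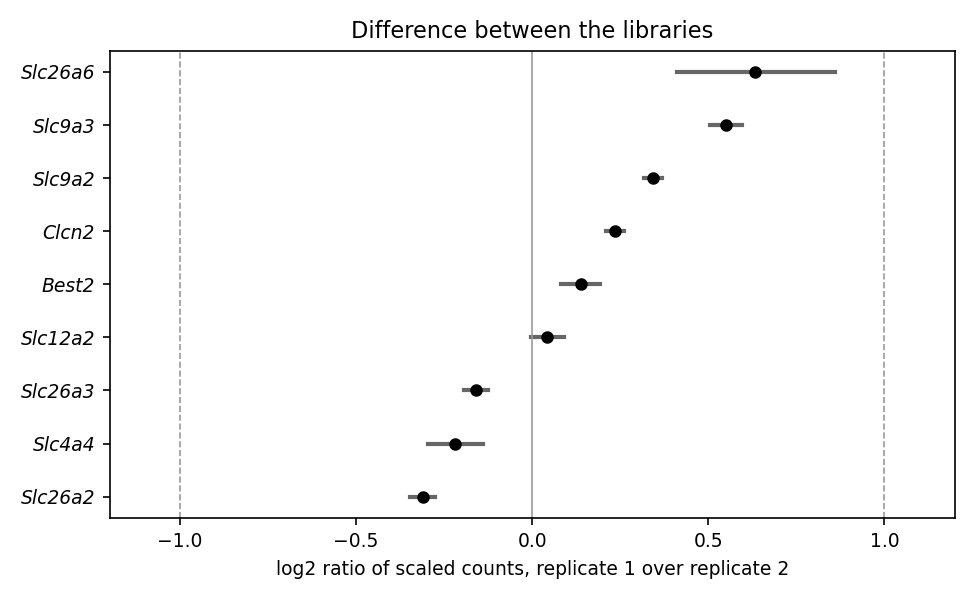
Log2 ratio of scaled counts, replicate 1 over replicate 2, for the 9 genes; points are the ratios, grey bars the 95% intervals from counting error alone, and dashed lines the fold needed for a call. All 9 lie inside the dashed lines, from -0.31 for Slc26a2 to 0.63 for Slc26a6.

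At the transcript level the members had 44 transcripts, of which 23 had a mean of at least 1 TPM and 10 were at 0 in both libraries. The deposited intervals were apart for 14 of the 23, 8 higher in replicate 1 and 6 higher in replicate 2, against 34.9% of 27084 transcripts at that level. These 27084 transcripts were not matched to the members for depth, on which interval width depends. The counts therefore do not show that member transcripts differed more than others.

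Among 68 related transport, scaffold and pump genes, 43 had a mean of at least 1 TPM and 61 were tested. Of these, 4 were called higher in replicate 1 and 0 higher in replicate 2, beside 6.35% of all genes tested in both directions. Among them were Slc26a1 (28 expected counts in replicate 1 and 6 in replicate 2), Slc9a4 (24 and 4) and Clcn1 (23 and 9), all scarce. None of these 3 passed edgeR's exact test after adjustment.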

How the data were processed

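Colon RNA of 1 group was analysed in 2 libraries. Per the file headers, the authors deposited for each library gene and transcript tables of expected counts (estimated, per gene or transcript), TPM, FPKM and, for transcripts, percent of the gene's TPM, made on mm10 with GENCODE M4. They also deposited posterior means and interval bounds of TPM, used here as a signal range whose level is not given. Transcript and gene lengths in nucleotides come from the same deposited tables. Aligner and quantifier versions were not given in the sources used here. Depth was 46271167 and 45499561 expected counts, and intervals from counts cover counting error only. The junction and contig files, on another build, were not used here.

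Names, types, coding sequences and coordinates were taken by versionless identifier from GENCODE M21, on the same assembly. Expected counts were rounded, library sizes were scaled by TMM (edgeR 4.0.16, R 4.3.3), and each gene with a summed count of at least 10 was tested by an exact binomial test (scipy 1.17.1) with Benjamini-Hochberg adjustment over 17713 genes. The p-values compare these libraries and not conditions, and the spread between them may be technical. edgeR's exact test, DESeq2 1.42.0 size factors, other count minimums, posterior means, FPKM, a TPM rescaled without acinar genes and each library alone were alternatives. Only the binomial call was tested on simulated data. The simulated counts held counting error alone, so they cannot show the rate of false calls under the wider spread of these libraries. All 9 members are named. Of the related gene lists, the 2 highest genes by mean TPM and any called gene are named, except for some that are not reported here, and Pdzk1, Cftr and Car12 were named after their values were seen. The members and lists were chosen with earlier results of these data known. RefSeq promoter entries matched 5 of the 9 members, in 6 entries.

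Further marker lists summed in replicates 1 and 2 to 170 and 191 TPM (crypt base, Olfm4 at 0 in replicate 1), 6870 and 6761 TPM (smooth muscle), 422 and 511 TPM (fibroblast), 84.4 and 77.0 TPM (enteric neuron) and 220 and 474 TPM (adipocyte).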

Additional observations from a re-analysis of the deposited data

How the results depend on the processing

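The count of members called different between the libraries was 0 under total counts, DESeq2 size factors, TMM without acinar, red blood cell and adipocyte genes, no minimum count, a minimum of 100, posterior mean counts and edgeR's exact test. Without the fold threshold it was 8, out of 8755 genes. Over all genes the calls numbered 1124, against 414 at a minimum count of 100 and 239 with edgeR's exact test. The summed level of the members was 522 TPM in near full-length coding transcripts alone, an alternative added after seeing the data, against 945 TPM. On that view Slc26a3 was at 93.8 TPM, Slc26a6 at 3.41 TPM, Slc9a2 at 53.4 TPM and Clcn2 at 111 TPM. The Slc26a6 level there leaves out the fragment Slc26a6-203, and the ratio of Slc26a3 to Slc26a6 on that view shares this limit. With posterior means, Slc26a6-202 had 28.5% of its gene and Slc4a4-207 had 95.3%. Taking each library alone, the summed level ran from 895 to 995 TPM, and the ratio of Slc26a3 to Slc26a6 from 12.9 to 25.6, of Slc26a3 to Slc9a3 from 1.22 to 2.18, of Slc9a2 to Slc9a3 from 2.30 to 2.64, of Slc26a3 to Slc12a2 from 4.43 to 5.55, of Clcn2 to Best2 from 3.56 to 3.59 and of Slc12a2 to Slc4a4 from 2.92 to 3.46. On the near full-length view, where Slc9a3 with 1 quantified transcript could not lose TPM, the mean ratio of Slc9a2 to Slc9a3 was reversed, at 0.568. That of Slc26a3 to Slc9a3 was 1.03, at 0.786 in replicate 1 and 1.27 in replicate 2. The ratio of Slc26a3 to Slc26a6 was then 30.2, of Slc26a3 to Slc12a2 3.04 and of Clcn2 to Best2 1.39. No other setting run reversed a direction. No paired analysis was possible because there is 1 group. Slc26a6, with 424 and 267 expected counts, was limited most by depth, and transcript levels that rest on few own bases, such as Slc26a3-205, depend on how the quantifier divided shared reads.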
